A study of Mus musculus with 36 samples.

Results

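Nr1h4, Nr0b2, Nr5a2, Fgfr4 and Klb encode the receptors and transcription factors through which bile acids limit their own synthesis in the liver. They were chosen by symbol and are 5 of the 21889 genes in the deposited table, and all 5 were found and passed the filter on low values (an age mean of 1 FPKM or more somewhere in the course). FPKM is fragments per kilobase of exon scaled to the mapped reads of a library, a level per transcript length, so that levels of different genes can be set side by side. The study followed mRNA in the livers of male C57BL/6 mice by sequencing poly-A RNA at 12 ages, with 3 livers per age and 36 in all. The ages were Day -2 (before birth), Day 0 (newborn pups that had not yet suckled), Days 1, 3, 5, 10, 15 and 20 (suckling) and Days 25, 30, 45 and 60 (after weaning). The mice were untreated, carried no transgene, and were drawn at random from several litters. Day 60 stands for the adult. Whole liver was sequenced, so fewer hepatocytes and less mRNA per hepatocyte cannot be told apart.

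FXR, encoded by Nr1h4, is a nuclear receptor that binds bile acids and acts as a heterodimer with RXR. In hepatocytes FXR induces Nr0b2, which encodes SHP, a nuclear receptor without a DNA-binding domain that represses other factors. One of these is LRH-1, encoded by Nr5a2, which activates Cyp7a1, the rate-limiting enzyme of bile acid synthesis, and also Nr0b2 itself. In the ileum FXR induces the hormone FGF15, which travels to the liver and acts on the receptor tyrosine kinase FGFR4 together with its membrane co-receptor beta-Klotho, encoded by Klb. The branch through SHP and the branch through FGFR4 both lower Cyp7a1.

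On the mm9 build, Nr1h4 lies on the minus strand at chr10:88916979-88996330 and Nr0b2 on the plus strand at chr4:133109291-133112451. Nr5a2 is on the minus strand at chr1:138740161-138857004, Fgfr4 on the plus strand at chr13:55254001-55270120 and Klb on the plus strand at chr5:65739625-65775242. All 5 are annotated as protein-coding, and no other annotated gene overlaps them. Promoter windows of 300 bases (the 250 bases before and 50 after an annotated start) were found for all 5 genes in RefSeq on build GRCm38.p6, with 2 windows for Nr5a2. The windows were searched on both strands for TCAAGG, the core of sites bound by LRH-1, and for AGGTCA, the half-site shared by many nuclear receptors. The windows of Nr0b2 and Nr1h4, whose mRNAs had the most similar course over the 12 ages, and of Klb, whose course stood apart from both, are shown 5′ to 3′ on the strand of the gene. Capitals mark TCAAGG or AGGTCA or their reverse complements. The Nr0b2 window is chr4:133553126-133553425 (plus strand), the Nr1h4 window chr10:89506609-89506908 (minus strand) and the Klb window chr5:65348161-65348460 (plus strand).
Nr0b2: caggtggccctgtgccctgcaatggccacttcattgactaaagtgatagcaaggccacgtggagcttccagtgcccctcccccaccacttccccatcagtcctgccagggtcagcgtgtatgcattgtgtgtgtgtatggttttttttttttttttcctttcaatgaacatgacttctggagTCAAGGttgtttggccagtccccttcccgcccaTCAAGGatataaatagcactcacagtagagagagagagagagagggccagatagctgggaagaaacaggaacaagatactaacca
Nr1h4: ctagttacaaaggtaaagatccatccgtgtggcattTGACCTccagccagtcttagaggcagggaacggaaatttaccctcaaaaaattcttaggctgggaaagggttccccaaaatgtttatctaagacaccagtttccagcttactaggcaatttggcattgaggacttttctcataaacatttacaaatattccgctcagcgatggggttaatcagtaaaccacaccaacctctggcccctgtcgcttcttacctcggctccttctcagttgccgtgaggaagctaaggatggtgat
Klb: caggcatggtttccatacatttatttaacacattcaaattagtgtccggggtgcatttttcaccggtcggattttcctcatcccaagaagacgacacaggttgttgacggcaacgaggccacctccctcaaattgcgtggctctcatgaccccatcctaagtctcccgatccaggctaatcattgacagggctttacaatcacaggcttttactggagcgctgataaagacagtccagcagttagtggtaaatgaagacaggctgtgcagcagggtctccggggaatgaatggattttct

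The Nr0b2 window held TCAAGG at 2 places, with first bases 68 and 35 bases before the annotated start. The Nr1h4 window held AGGTCA on the opposite strand, 214 bases before its start, and the first Nr5a2 window held it 64 bases before its start. None of the matches overlapped. The windows of Fgfr4 and Klb and the second window of Nr5a2 held neither motif. Over all 32851 windows of this length, 14.4% held TCAAGG and 16.3% held AGGTCA. The inverted repeat of AGGTCA spaced by 1 base, a form bound by FXR with RXR, was in 3 of the 32851 windows and in none of these 6. Such a match describes letters in a window and shows no binding.

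Read totals were not used here. The step between low FPKM values put depth at 72250000 to 106000000 fragments per library with a median of 82500000, as a loose estimate, since between 44.7% and 67.4% of low values were within 0.2 of a whole fragment. On that estimate the 5 genes rested on between 13.9 fragments (Nr0b2 at Day -2) and 4003 fragments (Klb at Day 1), so that counting error mattered mainly for Nr0b2 before birth. The summed level of the 7 hepatocyte markers was 5134 to 5873 FPKM at Day -2, 26341 to 35086 at Day 0 and 22166 to 60368 afterwards. The 5 erythroid markers found in the table summed to 2909 to 3671 FPKM at Day -2 and to 65.7 to 72.0 at Day 60. Summed markers of pancreatic acinar cells ranged from 4.85 to 24627 FPKM and exceeded 5000 in 5 mice, the highest being Day 60 replicate 1, and muscle markers reached 1226 FPKM in Day 0 replicate 1.

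Nr1h4 mRNA was lowest before birth and rose in 2 steps up to Day 1. At Day -2 the 3 livers had 1.61, 2.12 and 2.58 FPKM, at Day 0 they had 7.64, 6.29 and 4.50, and at Day 1 they had 10.995, 11.2 and 13.4. None of these groups overlapped with the next. Between Days 3 and 45 single livers ranged from 8.72 to 17.98 FPKM, and the Day 60 livers had 16.3, 20.3 and 14.6. The mean of 2.11 ± 0.484 (SD, n = 3) at Day -2 rose to 6.14 ± 1.57 at Day 0 and 11.9 ± 1.36 at Day 1, which was 69.5% of the Day 60 mean of 17.1 ± 2.91. The step from Day -2 to Day 0 was 1.19 ± 0.18 (log2(FPKM + 1), SE, adjusted p = 3.44e-06) and the step to Day 1 a further 0.87 ± 0.18 (adjusted p = 0.000530). After Day 1 no step between consecutive ages passed the test.

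Nr0b2 mRNA was almost undetected before birth and rose in 3 separate steps, the last of them between Days 5 and 10. At Day -2 the livers had 0.170, 0.277 and 0.184 FPKM, at Day 0 they had 2.53, 1.68 and 3.02, and at Day 1 they had 6.40, 7.9998 and 9.48. The level then stayed on a plateau through Day 5, when the livers had 10.6, 7.44 and 4.91. At Day 10 the livers had 16.4, 17.3 and 19.5, above every liver of Days 1 to 5. From Day 15 to Day 45 single livers ranged from 8.35 to 21.2 FPKM, and those of Day 60 had 18.4, 19.5 and 23.3. The Day 60 mean of 20.4 ± 2.60 (SD, n = 3) was 96.8-fold the Day -2 mean of 0.210 ± 0.0580, the widest range of the 5 genes. The steps were 1.48 ± 0.27 from Day -2 to Day 0 (log2(FPKM + 1), adjusted p = 4.33e-05), 1.40 ± 0.27 from Day 0 to Day 1 (adjusted p = 0.000243) and 1.16 ± 0.27 from Day 5 to Day 10 (adjusted p = 0.00109). Of all tested genes 13.1% rose at the first of these steps, 23.7% at the second and 1.88% at the last, where Nr0b2 was the only 1 of the 5 receptors to rise. Fgfr4 passed there too once every library was given the same upper quartile (0.48, adjusted p = 0.0225). The hepatocyte markers also summed to more at Day 10 (46046 to 52649 FPKM) than at Day 5 (23950.4 to 29418), and the part of this in the step of Nr0b2 was not tested.

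**Figure D1:**
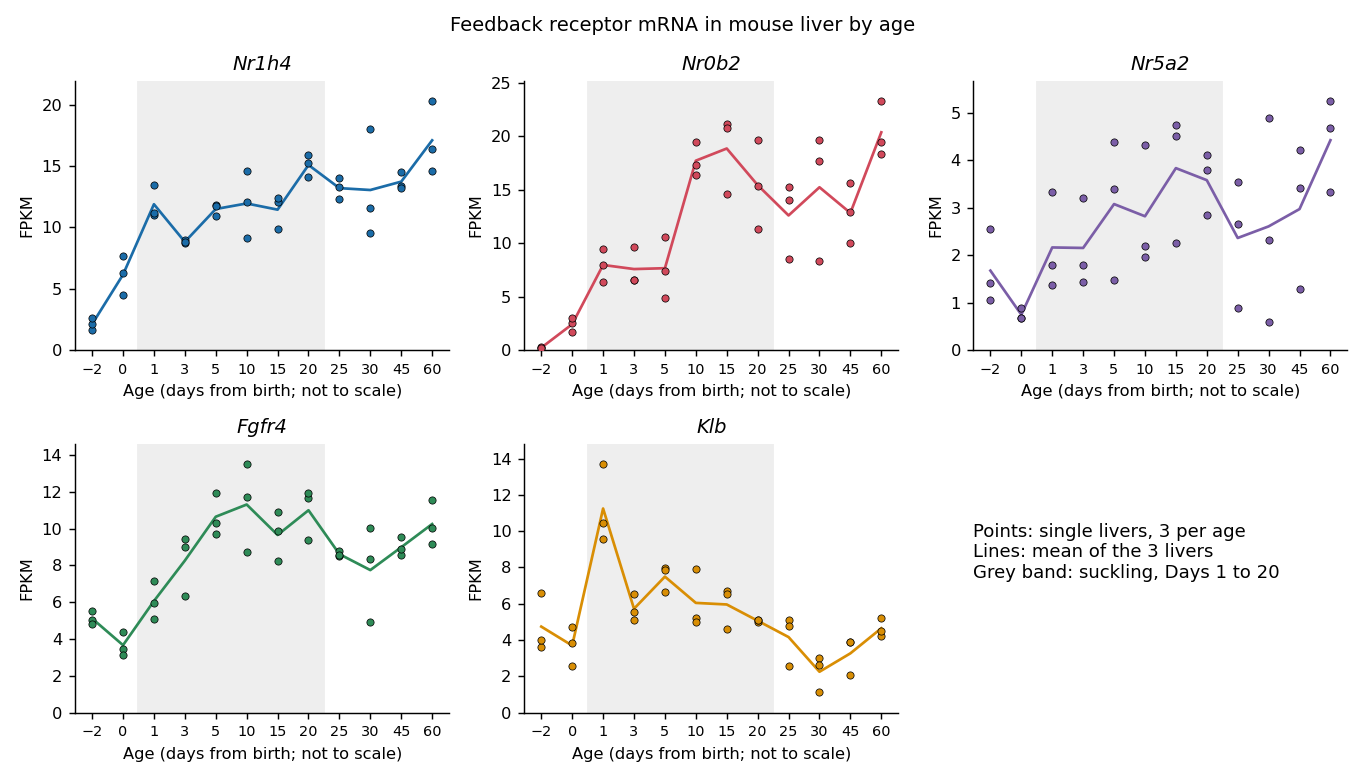
FPKM of each gene (vertical axes, each from 0) at the 12 ages (horizontal axis, evenly spaced), with 1 point per liver, a line through the means of 3 livers, and a grey band over the suckling ages. Nr1h4 climbed to 11.9 FPKM by Day 1, Nr0b2 stayed near 7.6 FPKM at Days 3 and 5 and reached 17.7 at Day 10, and Klb peaked at 11.2 FPKM at Day 1.

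Nr5a2 mRNA was the lowest of the 5 at most ages and the most variable between livers of the same age. Its 3 livers at Day 0 had 0.881, 0.669 and 0.685 FPKM, below every liver at Days 1 to 20. At Day 30 the livers had 0.589, 4.91 and 2.33, and at Day 60 they had 4.69, 5.26 and 3.33. The groups of Days 5 to 45 each overlapped with Day 60. The mean rose from 0.745 ± 0.118 (SD, n = 3) at Day 0 to 4.43 ± 0.988 at Day 60. On the FPKM scale only Day -2 (-1.04 ± 0.39, adjusted p = 0.0185) and Day 0 (-1.62 ± 0.39, adjusted p = 0.000692) differed from Day 60, and the first of these calls was lost without Day -2 replicate 2 (adjusted p = 0.0780) or Day 60 replicate 2 (adjusted p = 0.0621). At a common upper quartile of all libraries Days 1, 3 and 5 passed as well (-1.16, -1.24 and -0.93, adjusted p = 0.00992, 0.00634 and 0.0395). The pooled SD between livers of an age was 0.514 on the log2 scale, above that of 97.1% of tested genes.

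Fgfr4 mRNA was lowest at birth and rose on the first day of suckling. The livers had 5.02, 5.53 and 4.80 FPKM at Day -2, 3.44, 3.16 and 4.40 at Day 0, and 5.96, 7.15 and 5.08 at Day 1. By Day 5 they had 9.72, 11.9 and 10.3, and the Day 60 livers had 9.14, 10.1 and 11.6. The Day 5 and Day 60 groups overlapped, whereas every liver of Days -2, 0 and 1 was below every Day 60 liver. The range of the age means was 3.08-fold, the narrowest of the 5 genes, from 3.67 ± 0.650 (SD, n = 3) at Day 0 to 11.3 ± 2.43 at Day 10. The step from Day 0 to Day 1 was 0.60 ± 0.18 (log2(FPKM + 1), adjusted p = 0.0134) and was lost without Day 0 replicate 2 (adjusted p = 0.0595) or Day 1 replicate 2 (adjusted p = 0.0714). The lower mean at Day 0 than at Day -2 (-0.40 ± 0.18, adjusted p = 0.0626) did not pass the test, though it did without Day 0 replicate 3 (adjusted p = 0.0375), Day 30 replicate 1 (0.0279) or Day 30 replicate 3 (0.0470), and with a trend of each library with transcript length and GC content removed (-0.55, adjusted p = 0.00210).

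Klb mRNA, unlike the other 4, had a mean before birth close to that of adults, and it had its highest level 1 day after birth. The livers had 6.60, 3.60 and 4.02 FPKM at Day -2, 4.69, 3.82 and 2.58 at Day 0, and 13.7, 10.4 and 9.57 at Day 1. The Day 1 livers were the 3 highest of all 36. They were followed by 6.51, 5.56 and 5.10 at Day 3, and from Day 5 to Day 20 single livers ranged from 4.64 to 7.96. After weaning the Day 25 livers had 5.13, 2.59 and 4.78 and those of Day 30 had 1.13, 2.99 and 2.65. The Day 45 livers had 3.88, 3.88 and 2.05 and the adults 4.22, 5.22 and 4.50. The Day -2 mean of 4.74 ± 1.63 (SD, n = 3) was 102% of the Day 60 mean of 4.65 ± 0.517 (difference -0.01 ± 0.24, adjusted p = 0.978), but at a common upper quartile it was lower (-0.50, adjusted p = 0.0463). At that scaling Day 0 was lower than Day 60 as well (-0.55, adjusted p = 0.0290). The rise from Day 0 to Day 1 was 1.39 ± 0.24 (log2(FPKM + 1), adjusted p = 7.55e-05) and the fall to Day 3 was -0.86 ± 0.24 (adjusted p = 0.0187). At that step 3.09% of tested genes fell. The fall of Klb was lost without Day 1 replicate 1 (adjusted p = 0.103), Day 3 replicate 2 (0.0636) or Day 3 replicate 3 (0.0785), or with a pseudocount of 0.1 (0.0504).

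Each age was compared with Day 60, the control age used by the study. All 5 receptors differed from Day 60 in at least 1 age, where 90.7% of all tested genes did, with smallest adjusted p from 9.15e-14 for Nr0b2 to 0.00115 for Nr5a2. Of the 55 combinations of gene and age, 20 passed the test, or 18 lower and 2 higher than Day 60, beside 39.6% of combinations over all genes. Nr1h4 was lower at 7 ages (Days -2 to 15), Nr0b2 at 5 (Days -2 to 5), Fgfr4 at 3 (Days -2 to 1) and Nr5a2 at 2, and with the common upper quartile Fgfr4 and Nr5a2 were lower at 5 ages each (Days -2 to 5). Klb was higher at Day 1 (1.11 ± 0.24, adjusted p = 0.000208) and Day 5 (0.59 ± 0.24, adjusted p = 0.0329) and lower at Day 30 (-0.84 ± 0.24, adjusted p = 0.0449). Early ages stood above Day 60 in most genes, with a median of 0.56 at Day -2 and 0.53 at Day 5 over all tested genes, so that 18.6% of genes were lower at Day -2 and 8.50% at Day 5. Against that shift the Klb value at Day 5 was near the median, and at a common upper quartile it came to 0.05 (adjusted p = 0.872), while the Klb value at Day 1 came to 0.68 (adjusted p = 0.00958). The Klb call at Day 5 was lost without Day 5 replicate 1 or 3 or Day 60 replicate 1 or 3 (adjusted p from 0.0714 to 0.0923). It was also lost with a pseudocount of 0.1 (0.0527) or with scaling to TPM (0.0977). The Klb call at Day 30 was lost in 14 of the 36 fits without a mouse, with the largest p without Day 30 replicate 1 (-0.56, adjusted p = 0.382). That call was also lost with no filter on low values (adjusted p = 0.0737) or with scaling to TPM (0.0796). Without the 5 libraries whose values fell most with transcript length it was lost too (-0.56, adjusted p = 0.197). The calls of Nr1h4 at Days 1, 5, 10 and 15 were lost without Day 60 replicate 2 (adjusted p = 0.113, 0.0782, 0.139 and 0.145), which had the highest Nr1h4 level of all 36 livers. Those at Days 1, 10 and 15 were also lost without Day 1 replicate 1 (0.0648) or 2 (0.0581), Day 10 replicate 2 (0.174) and Day 15 replicate 3 (0.108).

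**Figure D2:**
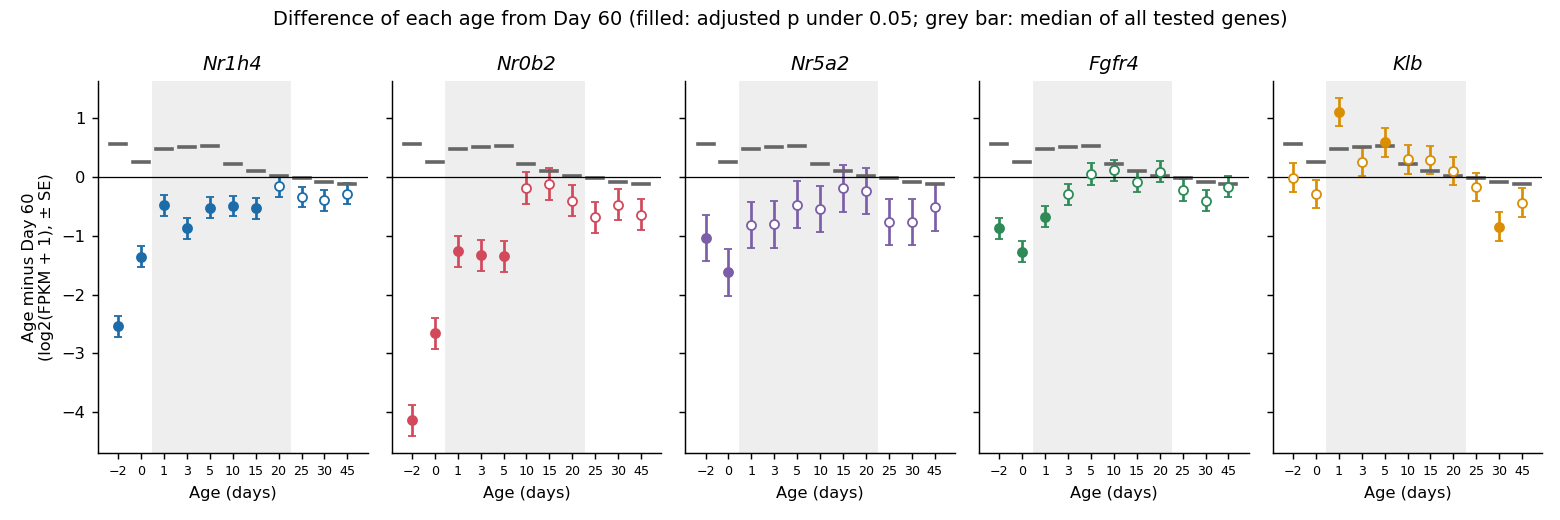
Difference of each age from Day 60 in log2(FPKM + 1) (vertical axis, bars are SE from the fit) at the 11 other ages (horizontal axis), filled where the adjusted p was under 0.05, with grey bars for the median of all 11149 tested genes. Nr0b2 lies at -4.14 at Day -2 and between -0.68 and -0.12 from Day 10 on, where no age passed, and Klb is the gene above 0 at Day 1, at 1.11.

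The ages were also taken as periods, before suckling, during suckling and after weaning. For all period differences from the fit, SE and p-values came from the spread between livers of the same age. They do not measure the spread between the ages of a period. Before suckling (Days -2 and 0) all 5 receptors were lower than during suckling (Days 1 to 20), where 67.8% of all tested genes differed, with 3014 of the 11149 lower and 40.7% higher. The differences, before minus during suckling, were -2.62 ± 0.15 for Nr0b2 (adjusted p = 4.49e-15), -1.44 ± 0.10 for Nr1h4 (4.13e-13), -0.94 ± 0.10 for Fgfr4 (4.06e-09), -0.82 ± 0.23 for Nr5a2 (0.00221) and -0.59 ± 0.14 for Klb (0.000480). These passed the test with every single mouse left out. The hepatocyte and erythroid marker sums moved over the same ages, as given above, and their part in these differences was not tested.

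During suckling compared with after weaning (Days 25 to 60), 3 of the 5 receptors differed, beside 79.7% of all tested genes. Klb was higher by 0.80 ± 0.11 (adjusted p = 1.54e-07), and Nr1h4 and Nr0b2 were lower (-0.25 ± 0.08, adjusted p = 0.00562, and -0.33 ± 0.12, adjusted p = 0.0159). Genes in general were higher during suckling, by a median of 0.39, and 68.1% of tested genes were called higher and 11.7% lower. With the common upper quartile, which brought that median to 0.13, Klb was still higher (0.47, adjusted p = 0.000128) and Nr1h4 and Nr0b2 lower (-0.64 and -0.70). Fgfr4 did not pass (0.07 ± 0.08, adjusted p = 0.457) and its sign turned with that scaling, to -0.30 (adjusted p = 0.000187). Nr5a2 gave 0.00 ± 0.18 (adjusted p = 0.986). The call of Nr0b2 was lost without the 5 libraries whose values fell most with transcript length (-0.24, adjusted p = 0.106).

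Across weaning itself, from Day 20 to Day 25, none of the 5 passed limma's test, beside 7.19% of all tested genes, and none had an unadjusted p under 0.05. The differences, Day 25 minus Day 20, were all below 0, from -0.53 ± 0.39 for Nr5a2 to -0.18 ± 0.18 for Nr1h4. The single livers overlapped between the 2 ages for Nr0b2, Nr5a2 and Klb, and for Nr1h4 and Fgfr4 those of Day 25 were all below those of Day 20. The share of all tested genes that separated in this way is not given here, so no drop at weaning is read from it. Of all 55 steps between consecutive ages 8 passed, beside 14.6% over all genes, and 6 of the 8 lay between Day -2 and Day 1. Genes in general also changed most there, with 54.6% of all tested genes differing from Day -2 to Day 0. From Day 0 to Day 1 31.6% differed.

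Ranked by mean log2(FPKM + 1), neighbouring ages differed in 4 of 55 cases, beside 6.41% over all genes. Nr1h4 was highest at Day 60 and then, in order, at Days 20, 45, 25, 30, 1, 10, 5, 15, 3, 0 and -2, and Day 3 against Day 0 and Day 0 against Day -2 were the neighbours that differed. Nr0b2 ran from Day 60 through Days 15, 10, 20, 30, 45, 25, 1, 3 and 5 to Days 0 and -2, with Day 5 against Day 0 and Day 0 against Day -2 differing. For Nr5a2 (highest at Day 60, lowest at Day 0), Fgfr4 (highest at Day 10, lowest at Day 0) and Klb (highest at Day 1, lowest at Day 30) no neighbours differed.

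The level of SHP mRNA relative to FXR mRNA was lowest before birth. The ratio of Nr0b2 to Nr1h4 FPKM within a liver was 0.105, 0.131 and 0.0713 at Day -2, 0.331, 0.268 and 0.671 at Day 0, and 0.582, 0.715 and 0.705 at Day 1. It was 0.900, 0.635 and 0.449 at Day 5 and 1.12, 1.89 and 1.61 at Day 10, so these 2 ages did not overlap. At Day 60 it was 1.12, 0.959 and 1.60. The ratio did not differ detectably between suckling and after weaning (two-sided exact permutation test over 6 against 4 age means, p = 0.795). For this test 1 was added to each FPKM value before the log2 ratio, and the difference was -0.07. Its sign turned without Day 30 replicate 1 (0.028).

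The co-receptor relative to its receptor was highest at Day 1. The ratio of Klb to Fgfr4 FPKM was 2.30, 1.46 and 1.88 at Day 1, above every liver of the other 11 ages. The mean was 0.935 ± 0.343 (SD, n = 3) before birth, 1.05 ± 0.411 in newborns and 1.88 ± 0.420 a day later. It was 0.714 ± 0.138 on Day 5, 0.466 ± 0.0670 on Day 20 and 0.284 ± 0.0671 on Day 30, with 0.457 ± 0.0653 in adults. The difference, suckling minus after weaning, was 0.73 on the log2 scale, with 1 added to each FPKM value before the ratio. Its two-sided exact permutation test over 6 against 4 age means gave p = 0.0333, where the smallest p of the 210 splits is 0.00952. With p-values adjusted over these 2 ratios the difference was not past 0.05 (adjusted p = 0.0667). It was also lost without Day 25 replicate 2 (exact permutation p = 0.0619) or with the median of the 3 livers in place of the mean (0.66, exact permutation p = 0.0667).

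**Figure D3:**
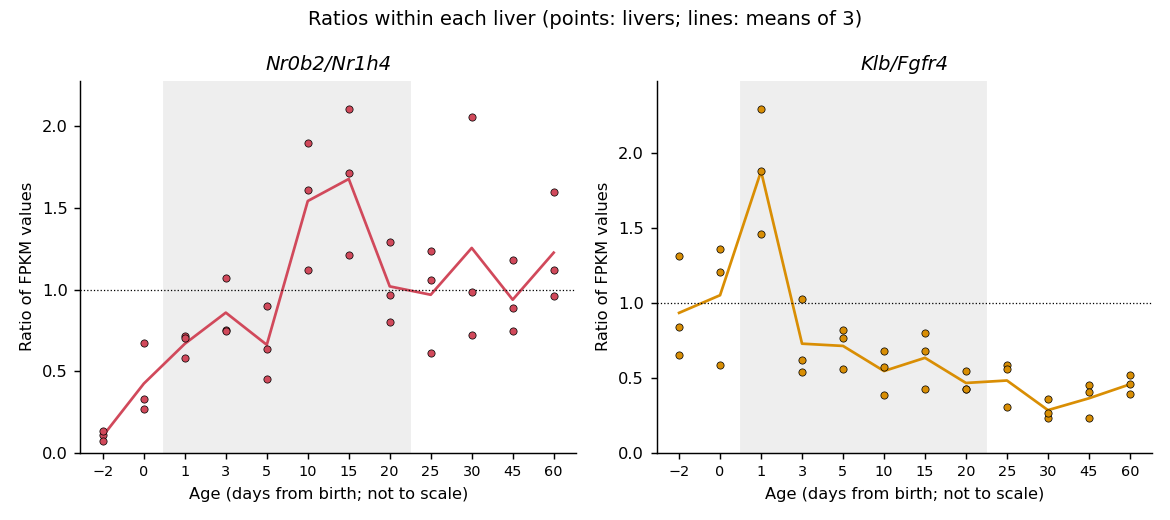
Ratio of FPKM values within each liver (vertical axes, from 0) at the 12 ages, with 1 point per liver, a line through the means of 3 livers, a dotted line at 1 and a grey band over the suckling ages. Nr0b2/Nr1h4 goes from a mean of 0.102 at Day -2 to 1.54 at Day 10, and Klb/Fgfr4 peaks at 1.88 at Day 1 and is lowest at Day 30, at 0.284.

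Over the 12 age means, Nr1h4 and Nr0b2 ran most nearly together (Pearson r = 0.945), then Nr5a2 and Fgfr4 (r = 0.891). Klb gave r between -0.01 and 0.19 with the other 4. These are descriptions over 12 points that share their libraries. Between livers of the same age, in contrast, Klb and Nr5a2 deviated together (r = 0.88 over 36 livers), and Nr1h4 and Nr0b2 did not (r = -0.01). A property of the libraries moved with Klb and Nr5a2. The length slope of a library is the change of its genes' deviations from the age mean for each doubling of transcript length, and it ranged from -0.195 in Day 30 replicate 1 and -0.156 in Day 25 replicate 2 to 0.149 in Day -2 replicate 1. Deviations followed it with r = 0.89 for Nr5a2 and 0.87 for Klb, whose longest transcripts have 3699 and 3464 bases, with 0.31 for Fgfr4 (3324 bases) and 0.12 for Nr1h4 (2013 bases), and with -0.39 for Nr0b2 (1132 bases). After a trend with length and GC content was taken out of each library, Klb and Nr5a2 still deviated together (r = 0.83), but both also still followed the length slope (r = 0.83 for Klb and 0.90 for Nr5a2). How far the length slope accounts for the low Klb and Nr5a2 values in those livers was not tested. The part of the length slope in the Klb to Fgfr4 ratio, of which only Klb followed it closely, was not tested either.

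**Figure D4:**
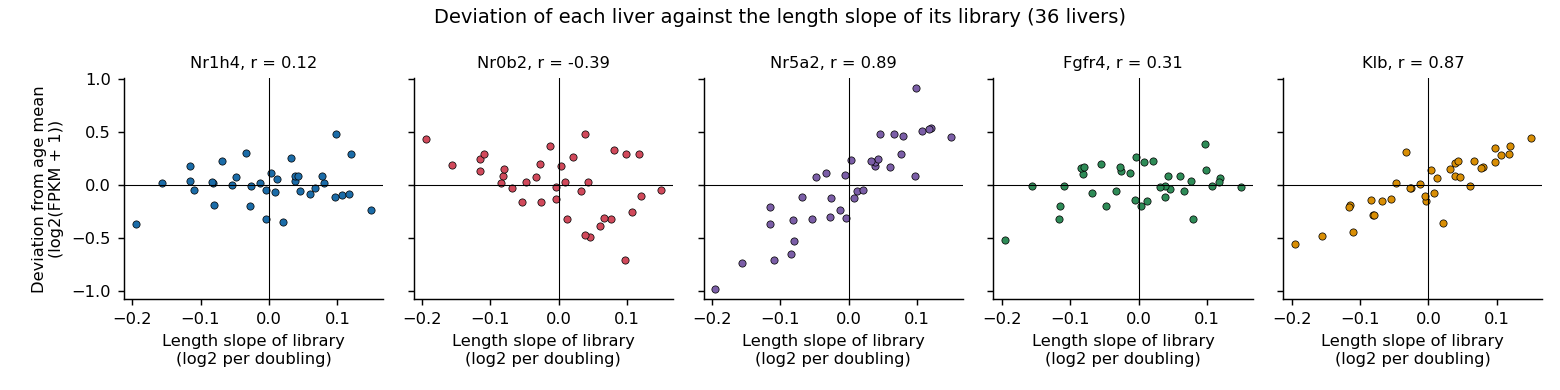
Deviation of each of 36 livers from its age mean in log2(FPKM + 1) (vertical axis) against the length slope of its library in log2 units per doubling of transcript length (horizontal axis), 1 point per liver. Nr5a2 (r = 0.89) and Klb (r = 0.87) rise along the slope, Nr0b2 (r = -0.39) leans the other way, and Nr1h4 (r = 0.12) shows little relation.

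The tested genes closest in course to each receptor over the 12 age means included Cdk18, Cisd1 and Sepp1 for Nr1h4 (r = 0.976, 0.972 and 0.972) and Adhfe1 and Cfi for Nr0b2 (0.979 and 0.978). Those of Nr5a2 were Kdm1b, Prkd3 and Pde8a (0.979, 0.966 and 0.957), and those of Fgfr4 were Ccdc91, S1pr1 and Slc31a1 (0.962, 0.961 and 0.954). Klb had Gpatch2, Spnb2 and 1700096K18Rik (0.942, 0.940 and 0.936). Cfi encodes a complement factor made by the liver and averaged 21.8 ± 9.34 FPKM (SD, n = 3) before birth, 87.3 ± 8.009 on Day 1 and 191 ± 8.70 in adults. Sepp1 encodes the selenium carrier selenoprotein P and averaged 226 ± 25.2 FPKM before birth, 1411 ± 404 on Day 1 and 1639 ± 141 in adults.

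The genes on either side of these receptors were followed as lists, here for suckling minus after weaning, where the median of all genes was 0.39. Of all tested genes 68.1% were higher and 11.7% lower. With the common upper quartile that median was 0.13, and the shares over all genes are not given here. Of the 3 FXR partners, Rxrb was higher (0.25) and Rxrg lower (-0.83), and Rxra gave 0.03 ± 0.12, but with the common upper quartile all 3 were lower and the sign of Rxrb turned (-0.13, adjusted p = 0.0429). Rxra averaged 15.2 ± 1.25 FPKM (SD, n = 3) at Day -2 and 56.5 ± 3.02 at Day 60. It was only slightly above Rxrb at Day -2 (mean log2(FPKM + 1) of 4.02 against 3.75). At Day 60 it was far above Rxrb (5.84 against 3.43). Of 11 tested FXR targets in hepatocytes, 4 were higher and 3 lower (2 and 7 with the common upper quartile), with a median of -0.12. Ostb, part of the basolateral bile acid exporter, was higher by 1.32 ± 0.10, and Baat and Slc27a5, which conjugate bile acids, were lower by -2.36 ± 0.08 and -1.17 ± 0.08. Abcb11, the bile salt export pump, averaged 4.94 ± 0.997 FPKM before birth, 25.9 ± 5.84 on Day 1 and 56.4 ± 11.1 in adults. Before suckling, 9 of the 11 targets were lower than during suckling and 2 were higher, beside 3014 of all 11149 tested genes that were lower and 40.7% that were higher.

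Bile acid synthesis and uptake genes included the largest differences of all lists. Of 8 synthesis enzymes, 2 were higher and 4 lower during suckling than after weaning, beside 68.1% and 11.7% of all tested genes. With the common upper quartile 1 was higher and 7 were lower. The shares over all genes at that scaling are not given here. Cyp7b1 and Cyp27a1, of the alternative pathway, were lower by -4.11 ± 0.14 and -2.73 ± 0.09, and Cyp39a1 was higher by 1.15 ± 0.12. Cyp7a1 averaged 0.186 ± 0.0779 FPKM before birth (SD, n = 3), 2.29 ± 0.713 in newborns, 6.05 ± 2.57 on Day 20, 1.43 ± 0.311 on Day 30 and 5.15 ± 0.709 in adults, and its difference between suckling and after weaning was -0.08 ± 0.14 (adjusted p = 0.631), or -0.37 with the common upper quartile, which passed (adjusted p = 0.0199). Cyp8b1, which directs synthesis to cholic acid, was lower during suckling by -0.83 ± 0.11. Of the 5 other activators of Cyp7a1, Prox1 was higher (0.56 ± 0.20), Nr1h3 lower (-0.51 ± 0.10) and Hnf4a gave 0.24 ± 0.13. With the common upper quartile the call of Prox1 was lost (0.29, adjusted p = 0.183) and Hnf4a turned to -0.17. Of 4 uptake carriers, Slco1a1 (-3.34 ± 0.16) and Slco1a4 (-0.47 ± 0.11) were lower. Slc10a1, the sodium-dependent carrier, averaged 14.5 ± 2.34 FPKM before birth and 321 ± 42.2 on Day 1 and gave 0.16 ± 0.08 between the periods, or -0.25 with the common upper quartile, which passed (adjusted p = 0.00760).

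Fgfr4 was above the other 3 FGF receptor kinases of the liver at every age. Fgfr1 had age means of 0.388 to 1.59 FPKM, Fgfr2 of 1.42 to 2.99 and Fgfr3 of 0.547 to 1.68, against 3.67 to 11.3 for Fgfr4. Fgfrl1, a family member without a kinase domain, averaged 5.28 ± 0.255 FPKM (SD, n = 3) at Day -2 and 4.07 ± 1.19 at Day 0, where Fgfr4 averaged 5.12 ± 0.377 and 3.67 ± 0.650, and these means differed by less than the spread between livers. Fgfr1 and Fgfr2 were higher during suckling than after weaning (0.53 ± 0.07 and 0.35 ± 0.10) and Fgfr3 was lower (-0.41 ± 0.07), and the call of Fgfr2 was lost with the common upper quartile (0.083, adjusted p = 0.412). Fgf15 was listed at 0 in every liver from Day 10 on and at 0.0200 FPKM at most before, and the ileum, where it is made, was not analysed here. Fgf21, a hepatic hormone that uses beta-Klotho with other FGF receptors, had its highest mean at Day 3, at 4.04 ± 0.995 FPKM (SD, n = 3), after 0.179 ± 0.112 at Day 0 and 1.74 ± 1.498 at Day 1, and was 0.271 ± 0.0933 at Day 60. It was higher during suckling by 0.76 ± 0.11, and Fgf1 was lower by -0.25 ± 0.12.

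Of 11 tested signalling genes below FGFR4, 10 were higher during suckling and none lower, with a median of 0.60 (7 and 1 with the common upper quartile). Gab1 (0.93 ± 0.09), an adaptor, and Mapk3 (0.76 ± 0.07), a MAP kinase, had the largest differences. Of 8 tested partners of SHP and LRH-1, 6 were higher and none lower, with a median of 0.61, and the same counts held with the common upper quartile. They were led by Gps2 (0.97 ± 0.06), a corepressor subunit, Kdm1a (0.76 ± 0.07), a histone demethylase, and Hdac1 (0.69 ± 0.07), a histone deacetylase. Beside these counts, 68.1% of all tested genes were higher in this comparison, with a median of 0.39. The shares over all genes with the common upper quartile are not given here. Whether either list differs from genes in general was not tested.

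**Figure D5:**
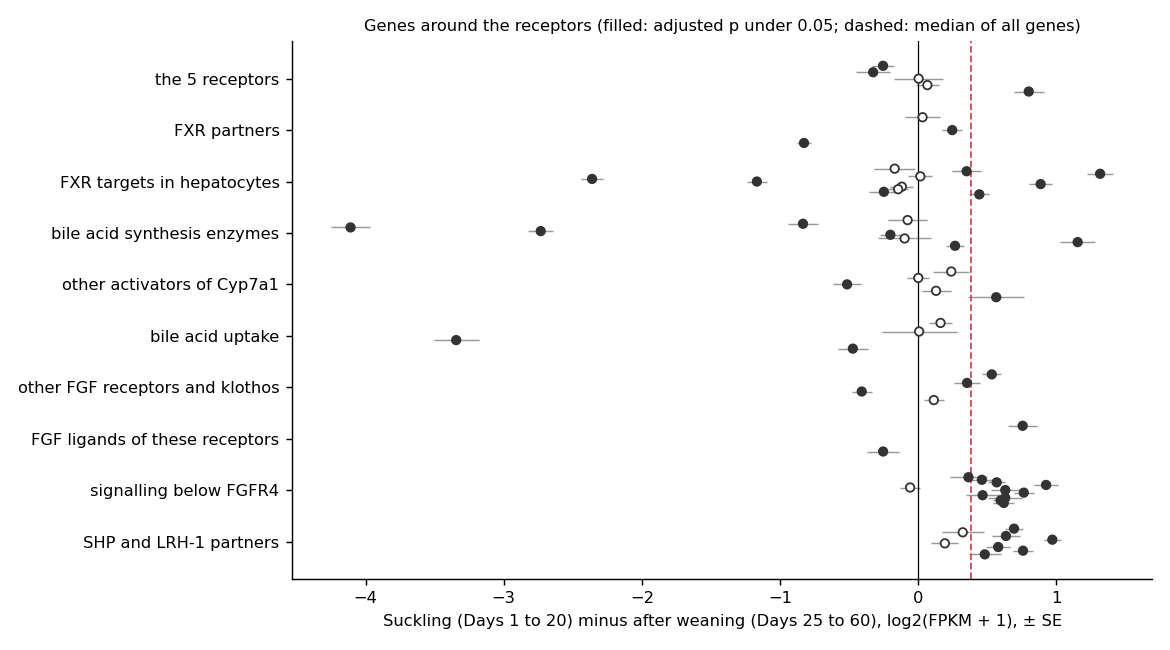
Suckling (Days 1 to 20) minus after weaning (Days 25 to 60) in log2(FPKM + 1) (horizontal axis, bars are SE) for the 5 receptors and the tested genes of each list (rows), filled where the adjusted p was under 0.05, with a dashed line at the median of all tested genes, 0.39. The receptors lie between -0.33 and 0.80, while Cyp7b1, at -4.11, and Slco1a1, at -3.34, lie far to the left.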

How the data were processed

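Poly-A RNA of 36 male livers was sequenced as paired reads from libraries made with a kit that does not mark strand. Per the study's methods and the submitters' processing notes, the authors mapped reads to mm9 with TopHat 1.2.0, estimated abundances with Cufflinks 1.0.3 and named transcripts with an Ensembl annotation, and the deposited table holds FPKM per gene symbol and mouse. No counts were analysed here, so no count model was used. FPKM values are relative to each library's total, so a few abundant transcripts can shift all others.

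Here log2(FPKM + 1) was fitted for 11149 genes, those whose mean reached 1 FPKM at any age, with limma 3.58.1 (R 4.3.3), with 1 mean per age and a trended variance prior, and p-values were adjusted by Benjamini-Hochberg over all genes in each comparison, with a threshold of 0.05. For a difference in any age, the adjustment ran over all genes and the 11 comparisons with Day 60. Ratios within livers were compared by two-sided exact permutation of age means of log2 ratios, with 1 added to each FPKM value. The permutation treats ages as exchangeable, though each period is a run of consecutive ages. A steady drift with age can therefore also give a small p. Labels gave the ages, and replicates are separate mice. The replicate numbers were not used to pair mice of different ages in the main fit. Deviations of same-number mice of different ages had a median correlation of 0.13, against -0.048 for different numbers. Of the 198 same-number pairs 104 were over 0.1, and the lowest was -0.68. Of all 36 mice, 19 correlated best with mice of their own number. Whether the numbers mark a batch was not tested.

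The receptors and the gene lists were chosen with earlier results of these data known. Besides the receptors, the text names for each the 3 tested genes with the highest Pearson r over age means, and of each list the genes with the largest differences between suckling and after weaning (3 where the list allowed it), together with Cyp7a1, Cyp8b1, Abcb11, Slc10a1, Rxra, Hnf4a, Fgf15, Fgf21 and Fgfr1 to Fgfr3. Of the genes this rule names, 2 are not reported here. The other marker lists (intestine, bile duct, adipose, and stellate with endothelial) had median sums of 11.8, 10.3, 7.26 and 33.7 FPKM over the 36 livers. Promoter windows were from RefSeq (GRCm38.p6), a build other than that of the table, and gene positions from GENCODE on mm9. Alternatives were other pseudocounts, filters, scalings, variance priors and samples, and the study's test against Day 60.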

Additional observations from a re-analysis of the deposited data

How the results depend on the processing

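The counts of receptors differing from Day 60 in any age, between periods and across weaning stayed within 1.5 times of the values above under a pseudocount of 0.1, no filter, a filter at 5 FPKM (which removes Nr5a2), a common upper quartile, scaling to TPM, no variance trend and each mouse left out. The study's own kind of test, a one-way analysis of variance with Dunnett comparisons, gave 13 combinations of gene and age differing from Day 60 in place of 20, and the cause was not tested. The common upper quartile gave 26, with 5 in place of 3 for Fgfr4, 5 in place of 2 for Nr5a2 and 4 in place of 3 for Klb. The share over all genes at that scaling is not given here. Leaving out single mice gave 14 to 21 such combinations, 7 to 9 steps and 3 to 6 neighbours in the order of levels. The Klb to Fgfr4 difference ran from 0.67 to 0.77 with single mice left out and was 0.66 with medians. The Nr0b2 to Nr1h4 difference ran from -0.15 to 0.028. With the replicate number as a replicate block, 20 combinations of gene and age passed, and the block ended no call of a named difference.

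Among the 5 receptors, signs turned in differences that had not passed the test. Suckling minus after weaning turned for Fgfr4 with the upper quartile (-0.30) and with the length and GC trend removed (-0.039), and for Nr5a2 with the upper quartile (-0.27), with TPM (-0.023), without the 5 libraries with a length slope under -0.1 (-0.25) and with single mice left out (-0.12 to 0.12). Day -2 minus Day 60 turned for Klb with single mice left out (-0.23 to 0.13). Removing the length and GC trend, leaving out those 5 libraries, and leaving out the 5 mice with over 5000 FPKM of acinar markers were chosen after seeing the data. With the length and GC trend removed, Nr0b2 was also lower than Day 60 at Day 25 (-0.83, adjusted p = 0.0261) and Fgfr4 at Day 3 (-0.50, adjusted p = 0.00336). Leaving out the mice with acinar markers left 16 combinations of gene and age. It ended the calls of Klb at Day 5 (adjusted p = 0.0912) and Day 30 (0.0966), of Nr1h4 at Day 15 (0.144) and of Nr5a2 at Day -2 (0.0528). With 3 mice per age and FPKM alone, small changes at single ages are beyond reach, and Nr0b2 at Day -2 rests on few fragments.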
